A study of Mus musculus with 15 samples.

Results

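The genes that move glucose across the renal tubule and make it anew were followed in whole kidney of male C57BL/6 mice (C57BL/6J in the methods) at 3, 12 and 24 months of age. They are 9 genes: the sodium-glucose cotransporters Slc5a2 and Slc5a1, the glucose transporters Slc2a2 and Slc2a1, the gluconeogenic enzymes Pcx, Pck1, Fbp1 and G6pc, and Slc37a4, which carries glucose-6-phosphate into the endoplasmic reticulum. They were chosen by name from 33058 genes with a value. A gene value is the sum of the FPKM over the listed isoforms that carry the gene name and fit an annotated transcript. Such isoforms match it, are contained in it, share a splice junction with it or otherwise overlap its exons. FPKM is a read density corrected for the length of a transcript and for library depth. The labels give 5 libraries at each age, 15 in all, with no treatment or genotype that differs between ages, and each library was taken as 1 mouse, so p-values measure the spread between these libraries. According to the methods, food and water were freely available and young and old mice were killed on the same day under urethane anaesthesia; the hour is not given in the sources used here, and the methods describe no 12-month-old mice. Mice are named by the replicate numbers of the labels, 5 to 9 at 3 months, 17 to 21 at 12 months and 31 to 35 at 24 months. All 15 sample titles begin with 3MK, also those at 12 and 24 months. The ages used here are those of the age label and of the column names.

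The kidney filters glucose freely and takes nearly all of it back in the proximal tubule. SGLT2 (Slc5a2) takes up the bulk of it in the early segments and SGLT1 (Slc5a1) the rest in the late segment, and GLUT2 (Slc2a2) and GLUT1 (Slc2a1) let it leave on the blood side. The proximal tubule also makes glucose from lactate, glutamine and glycerol, in fasting above all. Pyruvate carboxylase (Pcx) and cytosolic phosphoenolpyruvate carboxykinase (Pck1) open this route, fructose-1,6-bisphosphatase (Fbp1) bypasses the irreversible step in its middle, and glucose-6-phosphatase (G6pc), fed by the transporter Slc37a4, releases free glucose.

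Depth limits these values as follows. The ratio of coverage to FPKM put the aligned bases of a library between 5.03 and 6.13 gigabases at 3 months, 5.84 and 8.03 at 12 months and 6.07 and 7.33 at 24 months, so the 3-month-old libraries were the shallowest by median. FPKM gives no counting interval, and the SD over 5 mice is the only measure of its precision. In whole kidney, fewer cells of a type and less RNA per cell cannot be told apart. The 7 proximal tubule markers, which include Lrp2, Cubn and Slc34a1, summed to between 2043 and 2426 FPKM at 3 months, 2079 and 2258 at 12 months and 1922 and 2329 at 24 months, and 0 of 7 were called in any comparison of ages. The label kidney was therefore matched by abundant proximal tubule RNA at all ages. Single markers moved more than their sum. Their log2 differences ranged from -0.14 to 0.44 between 24 and 3 months and from -0.92 to 0.18 between 12 and 3 months. Between 24 and 12 months the range was -0.26 to 1.36.

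Per length, the most abundant of the 9 transcripts was Pck1, with a mean level over 15 mice of 523.3 FPKM ± 177.0 (SD), above G6pc in 15 of 15 mice. G6pc at 171.6 ± 68.8 and Fbp1 at 130.9 ± 18.3 FPKM came next and did not keep one order, since G6pc was the higher in 10 of 15 mice. Pcx at 82.3 ± 21.1 and Slc5a2 at 72.6 ± 16.0 FPKM were likewise not apart, with Pcx the higher in 11 of 15 mice. Slc37a4 at 52.3 ± 8.58 FPKM lay below Slc5a2 in 14 of 15 mice, and Slc2a2 at 34.1 ± 5.50 lay below Slc37a4 in 14 of 15. The lowest pair was Slc5a1 at 12.1 ± 3.09 and Slc2a1 at 10.2 ± 3.05 FPKM, with Slc5a1 the higher in 11 of 15 mice. Among the glucose cotransporters, the level of Slc5a2 divided by that of Slc5a1 had a median of 6.11 at 3 months, with a range of 5.20 to 10.2.

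**Figure D1:**
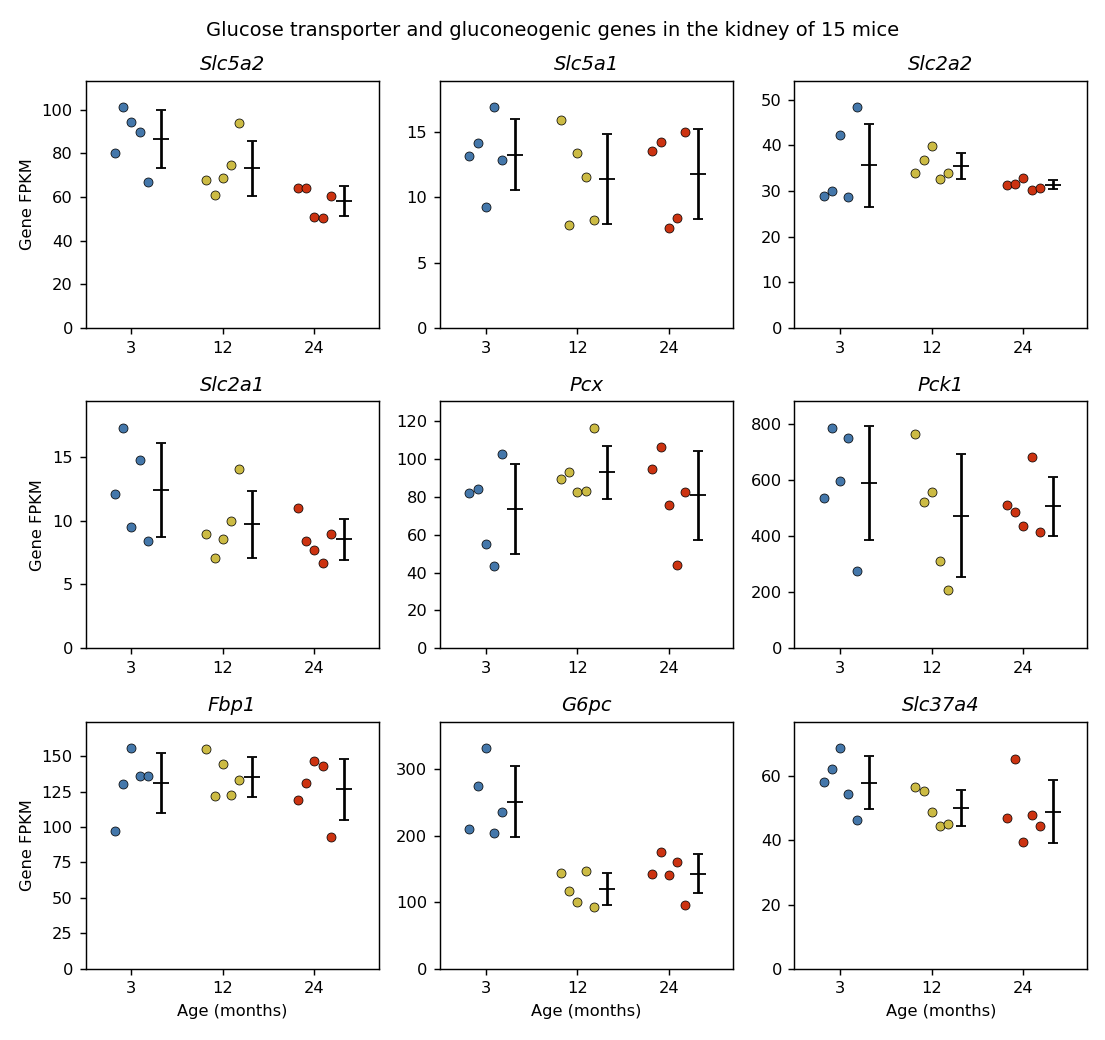
Gene FPKM of each mouse (points) at 3, 12 and 24 months for the 9 genes, with the mean and SD of 5 mice beside the points. G6pc at both older ages lies wholly below the 3-month-old mice, and Slc5a2 at 24 months lies wholly below them, while Pck1, Pcx, Fbp1 and Slc5a1 overlap at all ages.

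The largest difference with age among the 9 genes was in G6pc, the last enzyme of glucose production (ENSMUSG00000078650, chr11:101367561-101377903, plus strand, GRCm38). Its level was 209.8, 275.5, 331.4, 204.2 and 236.3 FPKM in the mice of 3 months. At 12 months it was 143.5, 116.3, 101.0, 146.3 and 93.0 FPKM, and at 24 months 142.8, 175.4, 141.5, 159.9 and 96.5 FPKM. Every mouse of both older ages lay below every 3-month-old mouse, whereas the older ages overlapped each other. The mean was 52.3% lower at 12 than at 3 months (251.4 ± 52.8 against 120.0 ± 24.2 FPKM, SD, n = 5 each). On the scale of log2(FPKM + 1) this difference was -1.06 (SE 0.18, unadjusted p = 0.00018, adjusted p = 0.0538, limma with Benjamini-Hochberg adjustment over all genes). At 24 months the mean was 143.2 ± 29.6 FPKM, 43.0% below that of 3 months, a difference of -0.81 (SE 0.19, unadjusted p = 0.00188, adjusted p = 0.0778, limma). The exact 2-sided permutation test over all assignments of 10 mice to 2 ages gave p = 0.00794 for each, the smallest it can give. Between 12 and 24 months the log2 difference was 0.25 (95% interval -0.17 to 0.67, unadjusted p = 0.212, limma). Without 24-month replicate 35, the lowest of its age, it was 0.38 with an unadjusted p of 0.0383 (adjusted p = 0.856, limma).

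The level of G6pc was also divided by that of other genes of the route in the same mouse, as a description with no test. The ratio of G6pc to Fbp1, the enzyme one stage before it in the pathway, had a median of 2.11 at 3 months (range 1.51 to 2.16), 0.927 at 12 months (0.699 to 1.20) and 1.118 at 24 months (0.963 to 1.34). These ranges do not overlap between 3 months and either older age. The ratio of G6pc to its partner Slc37a4 had a median of 4.43 at 3 months (3.61 to 5.09), 2.10 at 12 months (2.06 to 3.28) and 3.03 at 24 months (2.17 to 3.59), again without overlap with 3 months.

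The bases just before the start of G6pc are shown because this is the gene with the largest difference with age, and those of Pck1 because it is the other gene of the pathway best known for control by cAMP and insulin. Promoter entries (RefSeq, GRCm38.p6) exist for 8 of the 9 genes; Slc5a2 has none. Capitals mark matches, on either strand, to a cAMP response half-site (TGACG) and the core of an insulin response element (TGTTTT). These letters were picked after the sequences had been seen. The windows are chr11:101367466-101367560 (95 bases) and chr2:173152823-173153002 (180 bases), both on the plus strand, and end at the base before the first transcript of the gene in the deposited table.
G6pc: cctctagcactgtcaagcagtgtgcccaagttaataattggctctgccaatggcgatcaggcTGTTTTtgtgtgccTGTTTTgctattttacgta
Pck1: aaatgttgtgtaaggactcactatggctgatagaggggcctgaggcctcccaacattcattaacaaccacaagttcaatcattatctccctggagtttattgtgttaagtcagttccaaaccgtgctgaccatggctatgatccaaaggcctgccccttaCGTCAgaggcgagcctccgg
The G6pc window holds 2 insulin response cores and 0 cAMP half-sites in these letters. Over windows of the same length these motifs are held by 9.73% and 5.05% of 32851 promoters. The Pck1 window holds 1 cAMP half-site, on the minus strand, and 0 insulin response cores. Over its 180 bases the cAMP half-site is held by 10.7% of promoters and the insulin response core by 15.9%. A match is a run of letters only, and no binding was measured here. Other forms of these elements, and sites cut by the end of a window, were not searched. A count of 0 therefore does not mean that the window lacks the element.

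Slc5a2, which encodes the glucose cotransporter SGLT2 of the early proximal tubule (ENSMUSG00000030781, chr7:128265657-128272430, plus strand), was lower at 24 months than at 3 months. Its level was 80.4, 101.1, 94.5, 90.0 and 66.8 FPKM in 3-month-old mice. In 24-month-old mice it was 64.2, 64.2, 51.0, 50.6 and 60.3 FPKM, so that these ages did not overlap. The mice of 12 months, at 67.7, 60.9, 68.6, 74.5 and 93.8 FPKM, lay between and overlapped both. The means were 86.6 ± 13.4, 73.1 ± 12.5 and 58.1 ± 6.82 FPKM (SD, n = 5) at 3, 12 and 24 months. Between 24 and 3 months the log2 difference was -0.56 (SE 0.13, unadjusted p = 0.00138, adjusted p = 0.0703, limma), and the exact permutation p was 0.00794. Between 24 and 12 months it was -0.32 (unadjusted p = 0.0289, adjusted p = 0.747, limma), and without any 1 of 12-month replicates 20 and 21 and 24-month replicates 33 and 34 the unadjusted p was between 0.0542 and 0.0688. Summed over annotated isoforms alone, this difference turned to 0.39 (unadjusted p = 0.520, limma). Between 12 and 3 months it was -0.24 (95% interval -0.56 to 0.08, unadjusted p = 0.121, limma). That value was -0.38 (unadjusted p = 0.0209) with median-ratio scaling, -0.40 (0.0424) with a library covariate and -0.78 (0.213) with annotated isoforms alone, and the unadjusted p was 0.0337 without 3-month replicate 9 and 0.0291 without 12-month replicate 21. Slc5a2 lies over the minus-strand gene BC017158. The labels name a stranded kit, but whether reads were assigned by strand is not given in the sources used here, and the same holds for the antisense genes over Slc5a1, Slc2a2, Slc2a1 and Pcx.

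No such difference was detected in SGLT1. Slc5a1 (chr5:33104219-33162870) was at 13.2, 14.2, 9.25, 16.9 and 12.8 FPKM at 3 months, at 15.9, 7.88, 13.4, 11.5 and 8.24 at 12 months and at 13.5, 14.2, 7.63, 8.42 and 14.98 at 24 months. All ages overlapped, and the log2 difference between 24 and 3 months was -0.18 (95% interval -0.66 to 0.29, unadjusted p = 0.406, limma). Whether the difference in Slc5a2 exceeds that in Slc5a1 was not tested. The ratio of Slc5a2 to Slc5a1 had a median of 6.11 at 3 months and 4.74 at 24 months, with overlapping ranges of 5.20 to 10.2 and 4.03 to 6.68.

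On the blood side, Slc2a1, which encodes GLUT1 (chr4:119108711-119137983), was at 12.1, 17.2, 9.52, 14.7 and 8.37 FPKM at 3 months. It was at 8.98, 7.04, 8.54, 9.95 and 14.0 FPKM at 12 months and at 10.95, 8.36, 7.69, 6.71 and 8.99 FPKM at 24 months. The 24-month-old mice all lay below the 3-month median, but the ages overlapped. The log2 difference between 24 and 3 months was -0.46 (SE 0.19, unadjusted p = 0.0391, adjusted p = 0.301, limma). This call rested on single mice, since the unadjusted p was between 0.0534 and 0.0893 without any 1 of 3-month replicates 5, 6 and 8 and 24-month replicates 32, 33, 34 and 35. Slc2a2, which encodes GLUT2 (chr3:28697903-28731359), was at 29.0, 30.0, 42.2, 28.7 and 48.3 FPKM at 3 months and at 33.9, 36.7, 39.9, 32.7 and 33.9 FPKM at 12 months. At 24 months it was between 30.3 and 32.9 FPKM in all 5 mice, the narrowest spread of the 9 genes at any age (a coefficient of variation of 3.13%, against 25.4% at 3 months). Its log2 difference between 24 and 12 months was -0.17 (SE 0.06, unadjusted p = 0.0226, adjusted p = 0.743, limma), with an unadjusted p of 0.0511 without 12-month replicate 18 and of 0.236 with FPKM rescaled to TPM. Between 24 and 3 months it was -0.15 (95% interval -0.47 to 0.18, unadjusted p = 0.344).

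The first 3 enzymes of the route passed the test in no comparison. Pck1 (chr2:173153048-173159273), the enzyme that commits oxaloacetate to glucose, had a coefficient of variation of 34.5% at 3 months, 46.4% at 12 months and 20.8% at 24 months. It was at 537.3, 787.1, 599.1, 749.3 and 276.7 FPKM at 3 months, at 766.1, 523.5, 556.8, 311.9 and 206.6 at 12 months and at 510.2, 487.9, 437.5, 683.8 and 416.3 at 24 months. The highest and lowest of the 15 mice differed 3.81-fold, and all ages overlapped. Its log2 difference was -0.37 (95% interval -1.29 to 0.54) between 12 and 3 months and -0.15 (-0.82 to 0.52) between 24 and 3 months, with unadjusted p of 0.385 and 0.623 (limma), so a difference in Pck1 as large as that in G6pc lies inside the first interval. Fbp1 (chr13:62864753-62888282) had means of 130.9 ± 21.1, 135.2 ± 14.3 and 126.6 ± 21.7 FPKM (SD, n = 5) at 3, 12 and 24 months and a log2 difference of -0.05 (95% interval -0.41 to 0.31) between 24 and 3 months. Pcx (chr19:4510472-4621752), the mitochondrial enzyme that makes oxaloacetate from pyruvate, had means of 73.5 ± 23.7, 92.8 ± 13.9 and 80.7 ± 23.6 FPKM and a log2 difference of 0.14 (95% interval -0.50 to 0.78). Slc37a4 (chr9:44396852-44402968) was at 58.2, 62.1, 68.6, 54.5 and 46.4 FPKM at 3 months and at 47.1, 65.4, 39.5, 48.0 and 44.5 FPKM at 24 months, with overlap. Its log2 difference of -0.25 (95% interval -0.57 to 0.07) had an unadjusted p of 0.115, and without 24-month replicate 32, the highest of its age, the unadjusted p was 0.0144.

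**Figure D2:**
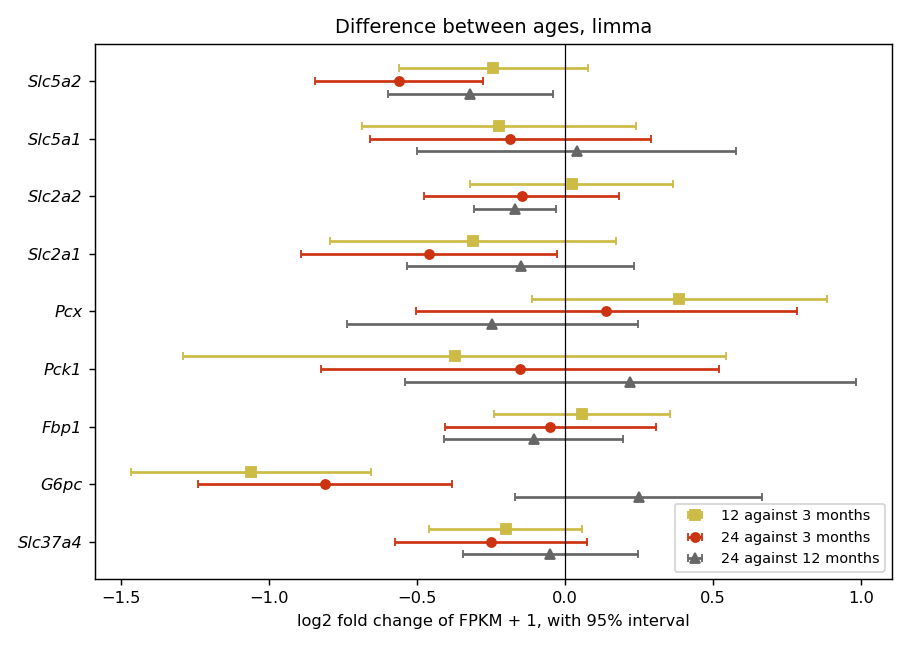
Difference in log2(FPKM + 1) with its 95% interval (limma, 5 against 5 mice) for each gene and pair of ages. The intervals of G6pc against 3 months, of Slc5a2 against both younger ages, of Slc2a1 between 24 and 3 months and of Slc2a2 between 24 and 12 months lie wholly below 0, and those of Pck1 are the widest.

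These counts were set beside the same counts over all genes. Between 24 and 3 months 3 of the 9 genes (G6pc, Slc5a2 and Slc2a1) had an unadjusted p under 0.05, all lower at 24 months, where 14.9% of 31755 genes did so in either direction and 3.47% were lower. Between 12 and 3 months it was 1 gene, G6pc, against 14.3% of 31637 genes in either direction and 2.9% lower. Between 24 and 12 months it was 2 genes, Slc5a2 and Slc2a2, against 6.43% of 32282 genes and 3.36% lower. With adjusted p under 0.05 it was 0 of 9 in each comparison (limma), where 1.22%, 0.25% and 0.0031% of genes passed. Values that did not overlap between the ages were found for 2 of 9 genes between 24 and 3 months, 1 of 9 between 12 and 3 months and 0 of 9 between 24 and 12 months, against 4.73%, 4.11% and 1.07% of all genes. Of the genes called between 24 and 3 months 76.7% were higher at 24 months, and this fell to 55.6% when libraries were scaled by the median ratio of their genes, which raised the share called lower to 6.47%. Between 12 and 3 months the same scaling took the share of higher calls from 79.8% to 53.9%. Between 24 and 12 months it was 47.7%, against 68.9% with FPKM rescaled to TPM and 23.1% with libraries scaled to proximal tubule markers. The median log2 difference of the 9 genes between 24 and 3 months was -0.18 with 8 below 0, beside 0.02 and 37.0% below 0 for all genes. The 3 comparisons share mice, so their results are not independent.

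Other genes of glucose handling were counted from 7 lists. Of 93 such genes tested, 24 (25.8%) were called between 24 and 3 months, 10 higher and 14 lower, with a median log2 difference of -0.02. Of all genes 14.9% were called, and of those with a mean of at least 1 FPKM 18.4% were called and 6.19% were lower. The counts were 17 of 92 (18.5%) between 12 and 3 months and 7 of 93 (7.53%) between 24 and 12 months, where 14.3% and 6.43% of all genes were called. Among the other members of the SLC5 family and the SGLT2 partner, 4 of 7 were called, all lower. Pdzk1ip1, which encodes the accessory protein MAP17 of SGLT2, was at 133.2 ± 23.6 FPKM at 3 months and 102.8 ± 12.8 at 24 months (log2 difference -0.36, unadjusted p = 0.0272, adjusted p = 0.259, limma). The others were Slc5a3, the myo-inositol carrier (-1.20), Slc5a10 (-0.48) and Slc5a12, a lactate carrier (-0.43), with adjusted p between 0.246 and 0.270 (limma). Among 9 further SLC2 transporters 5 were called, all higher, and the 4 with the smallest p were Slc2a6 (0.28), Slc2a12 (0.38), the fructose carrier Slc2a5 (0.49) and Slc2a3 (0.22), with adjusted p between 0.161 and 0.275 (limma). Slc2a6 and Slc2a3 were under 1 FPKM on average at both ages.

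In the supply of substrate, 2 of 21 genes were called, both lower. Slc16a1, which encodes the lactate and pyruvate carrier MCT1, was at 16.3 ± 3.16 FPKM at 3 months, 9.32 ± 1.96 at 12 months and 5.45 ± 1.64 at 24 months. Between 24 and 3 months its log2 difference was -1.45 (SE 0.19) with an adjusted p of 0.0146 (limma). Glud1, glutamate dehydrogenase, had a log2 difference of -0.29 with an adjusted p of 0.295. Among the 12 reversible steps 2 were lower, Pgam1 (-1.27, adjusted p = 0.0597) and Aldoa (-0.31, adjusted p = 0.298). Of the 19 genes of one-way glycolytic steps, pyruvate dehydrogenase and their regulators 6 were called, 4 higher and 2 lower. Pfkfb1 (0.64, adjusted p = 0.0346), Pfkfb4 (0.46, adjusted p = 0.0976) and Pdk2 (0.48, adjusted p = 0.215) were higher and Pdk4, a kinase that blocks pyruvate dehydrogenase, was lower (-1.20, adjusted p = 0.133, limma). The level of Pfkfb1 was low, at 0.743 ± 0.220 FPKM at 3 months and 1.71 ± 0.164 at 24 months. Of the 6 other glucose-6-phosphate and bisphosphate genes 1 was called, G6pc3, which encodes the ubiquitous glucose-6-phosphatase. It was at 14.8 ± 0.618 FPKM at 3 months and 10.5 ± 2.37 at 24 months (-0.49, adjusted p = 0.112, limma). Among 19 regulators tested 4 were called, 1 higher and 3 lower. The lower ones were Creb1, the cAMP response factor (-0.29, adjusted p = 0.132), Foxo3 (-0.58, adjusted p = 0.201) and the insulin receptor substrate Irs2 (-1.47, adjusted p = 0.227, limma).

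**Figure D3:**
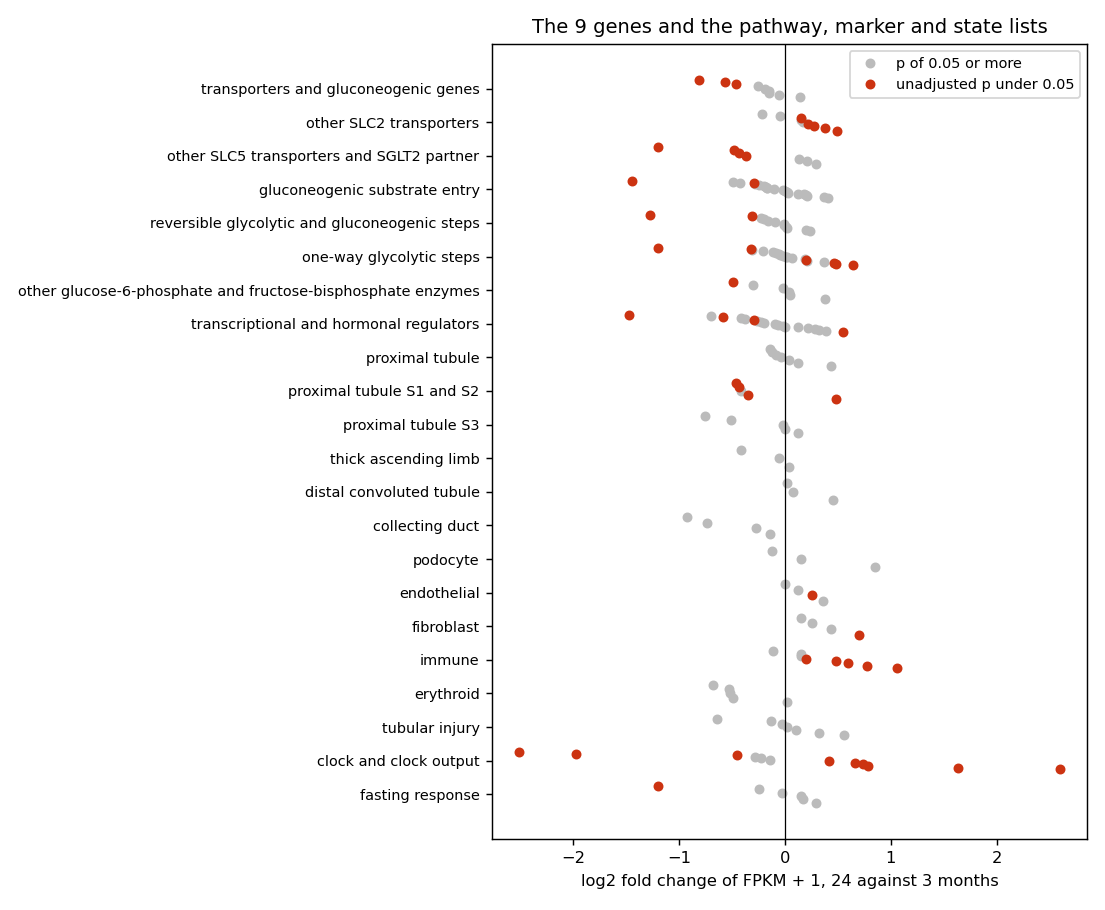
Difference in log2(FPKM + 1) between 24 and 3 months for the 9 genes and for each gene of the 21 pathway, cell type and state lists, 1 point per gene. Red points have an unadjusted p under 0.05 (limma); the clock genes spread the widest, from -2.51 to 2.60.

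Other marked differences moved with age beside these genes. Of 12 genes of the circadian clock and its output, 9 were called between 24 and 3 months, 6 higher and 3 lower, and 4 had an adjusted p under 0.05 (limma). The clock activators Arntl (11.9 ± 3.30 FPKM at 3 months, 1.45 ± 1.35 at 24 months) and Npas2 (5.07 ± 1.57 and 0.523 ± 0.325) were lower, and Dbp (1.17 ± 0.891 and 12.3 ± 6.84) and Per3 (2.36 ± 1.16 and 9.34 ± 2.85) were higher. Between 12 and 3 months 8 of 12 were called, 4 in each direction. The summed level of the list was between 100.6 and 134.8 FPKM at 3 months, 119.6 and 158.0 at 12 months and 106.7 and 172.7 at 24 months. The part of these differences in that of G6pc was not tested. Of 6 fasting response genes only Pdk4 was called between 24 and 3 months and between 12 and 3 months, lower in both.

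Among the markers of cell types, those of the early proximal tubule, where SGLT2 sits, were called in 4 of 5 cases. Slc7a8 (-0.46, adjusted p = 0.0391), Slc5a12 (-0.43), which is also in the SLC5 list, and Slc7a7 (-0.35) were lower at 24 months, and Slc22a8 (0.49) was higher, with adjusted p of 0.270, 0.281 and 0.115 for the last 3 (limma). The summed level of these 5 markers was between 274.0 and 376.3 FPKM at 3 months and between 269.1 and 346.1 at 24 months. Their part in the Slc5a2 difference was not tested. With every library scaled to the 7 general proximal tubule markers, a setting added after the data were seen, the log2 difference of Slc5a2 between 24 and 3 months was -0.59 (unadjusted p = 0.00219) and that of G6pc -0.84 (unadjusted p = 0.00762, limma). Of 8 immune markers 5 were higher, among them Cd79a (0.48), Jchain (1.06), Ms4a1 (0.20) and Ptprc (0.78), with adjusted p between 0.0521 and 0.226 (limma) and a summed level between 7.47 and 17.8 FPKM at 3 months and between 13.6 and 28.0 at 24 months. Cd79a and Ms4a1 were low, with means of 0.0830 and 0.0414 FPKM at 3 months and 0.521 and 0.198 at 24 months. The fibroblast list had 1 of 4 called (Dcn, 0.70, adjusted p = 0.250) and the endothelial list 1 of 4 (Pecam1, 0.26, adjusted p = 0.306), both higher. In the late proximal tubule (5 genes), thick ascending limb (3), distal convoluted tubule (3), collecting duct (4), podocyte (3), erythroid (5) and tubular injury (7) lists 0 genes were called between 24 and 3 months.

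Other markers differed between 12 and 3 months, where the G6pc difference was largest, and those named here were chosen after their values were seen. Of 4 fibroblast markers 3 were higher at 12 months, Dcn (0.97), Col1a1 (0.96) and Col3a1 (0.78), with adjusted p between 0.175 and 0.305 (limma). The summed level of the list was between 13.5 and 34.8 FPKM at 3 months and between 34.9 and 61.0 FPKM at 12 months. Of 8 immune markers 4 were higher, Cd79a (0.63), Cd3e (0.58), C1qa (1.10) and Jchain (1.15), with adjusted p between 0.0782 and 0.333 (limma) and a summed level between 21.002 and 44.7 FPKM at 12 months. Cd79a was low here too, with a mean of 0.0830 FPKM at 3 months and 0.694 at 12 months. Of 7 tubular injury genes 2 were higher. Havcr1, which encodes the injury marker KIM-1, was at 0.891 ± 0.507 FPKM at 3 months and 4.01 ± 2.87 at 12 months (1.27, adjusted p = 0.170), and Vcam1 was at 3.70 ± 1.53 and 7.68 ± 3.25 FPKM (0.87, adjusted p = 0.248, limma). The injury list summed to between 12.4 and 32.4 FPKM at 3 months and between 16.5 and 49.1 at 12 months. The water channel gene Aqp2, 1 of 4 collecting duct markers, was lower (-1.17, adjusted p = 0.191), as was Cldn16, 1 of 3 of the thick ascending limb (-0.60, adjusted p = 0.306, limma). In the proximal tubule, early and late proximal tubule, distal convoluted tubule, podocyte, endothelial and erythroid lists 0 genes were called. Between 24 and 12 months Havcr1, Vcam1 and Sox9 of the injury list were lower (-1.17, -0.54 and -0.29), as were Col3a1 and Col1a1 of the fibroblast list (-0.63 and -0.53), with adjusted p between 0.673 and 0.774 (limma). The part of these differences in that of G6pc was not tested either.

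The 9 genes had 55 listed isoforms, of which 37 are annotated and 18 were assembled from the reads. Isoforms of a gene share reads, so their values are not independent, and the split of reads between them differed from mouse to mouse. G6pc and Slc5a1 each had 1 isoform, which carried the whole gene value. In Slc2a1, the annotated transcript ENSMUST00000030398 carried 91.2% of the FPKM over the 15 mice. In Pcx, ENSMUST00000113825, which starts well inside the gene, carried 81.5%, while the other annotated transcript, ENSMUST00000068004, with the far upstream start, averaged 0.00740 FPKM. In 3-month replicate 8 and 24-month replicate 34 the share of ENSMUST00000113825 was 18.6% and 32.7%, the lowest of their ages, and those mice also had the lowest gene value of Pcx, at 43.6 and 44.0 FPKM.

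Slc5a2 had 17 isoforms. Its main transcript ENSMUST00000118169 was at 63.3, 72.9, 74.1, 57.2 and 47.0 FPKM at 3 months and at 55.5, 54.5, 34.8, 42.0 and 47.3 FPKM at 24 months. At 12 months it was at 57.8, 0, 56.5, 56.2 and 1.85 FPKM. In 12-month replicate 18, where it was listed at 0, the assembled isoform MSTRG.34288.1 was at 50.6 FPKM, or 83.1% of the gene, against less than 1 FPKM in the other 14 mice. In 12-month replicate 21 the signal was spread over several other transcripts, led by ENSMUST00000033045 with 23.6% and MSTRG.34288.11 with 19.9%. The gene sums of these 2 mice, 60.9 and 93.8 FPKM, were the lowest and the highest of their age. Between 24 and 3 months 5 isoforms of Slc5a2 were called, all lower, as were the G6pc transcript and ENSMUST00000165839 of Slc37a4. That makes 7 of 55 isoforms, where 7.9% of 124719 transcripts were called, and 0 of 7 had an adjusted p under 0.05 (limma over all transcripts). Between 12 and 3 months 7 isoforms of the 9 genes were called, 4 lower and 3 higher, and between 24 and 12 months 1 was, lower (limma). How many of all transcripts were called there was not counted. The 2 assembled Slc5a2 isoforms MSTRG.34288.4 and MSTRG.34288.2 did not overlap between 24 and 3 months, nor did the G6pc transcript. The share of all transcripts without overlap was not counted. MSTRG.34288.4 was at 6.33, 4.76, 7.19, 12.9 and 8.71 FPKM at 3 months and at 0.247, 0.0857, 4.68, 0 and 0.979 at 24 months, a log2 difference of -2.32 (SE 0.47, adjusted p = 0.222, limma). The other Slc5a2 isoforms called between 24 and 3 months were the main transcript (-0.42, unadjusted p = 0.0445, limma) and the minor ENSMUST00000206909 and ENSMUST00000137038. The minor ones were both under 1 FPKM on average, at -0.62 and -0.51.

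**Figure D4:**
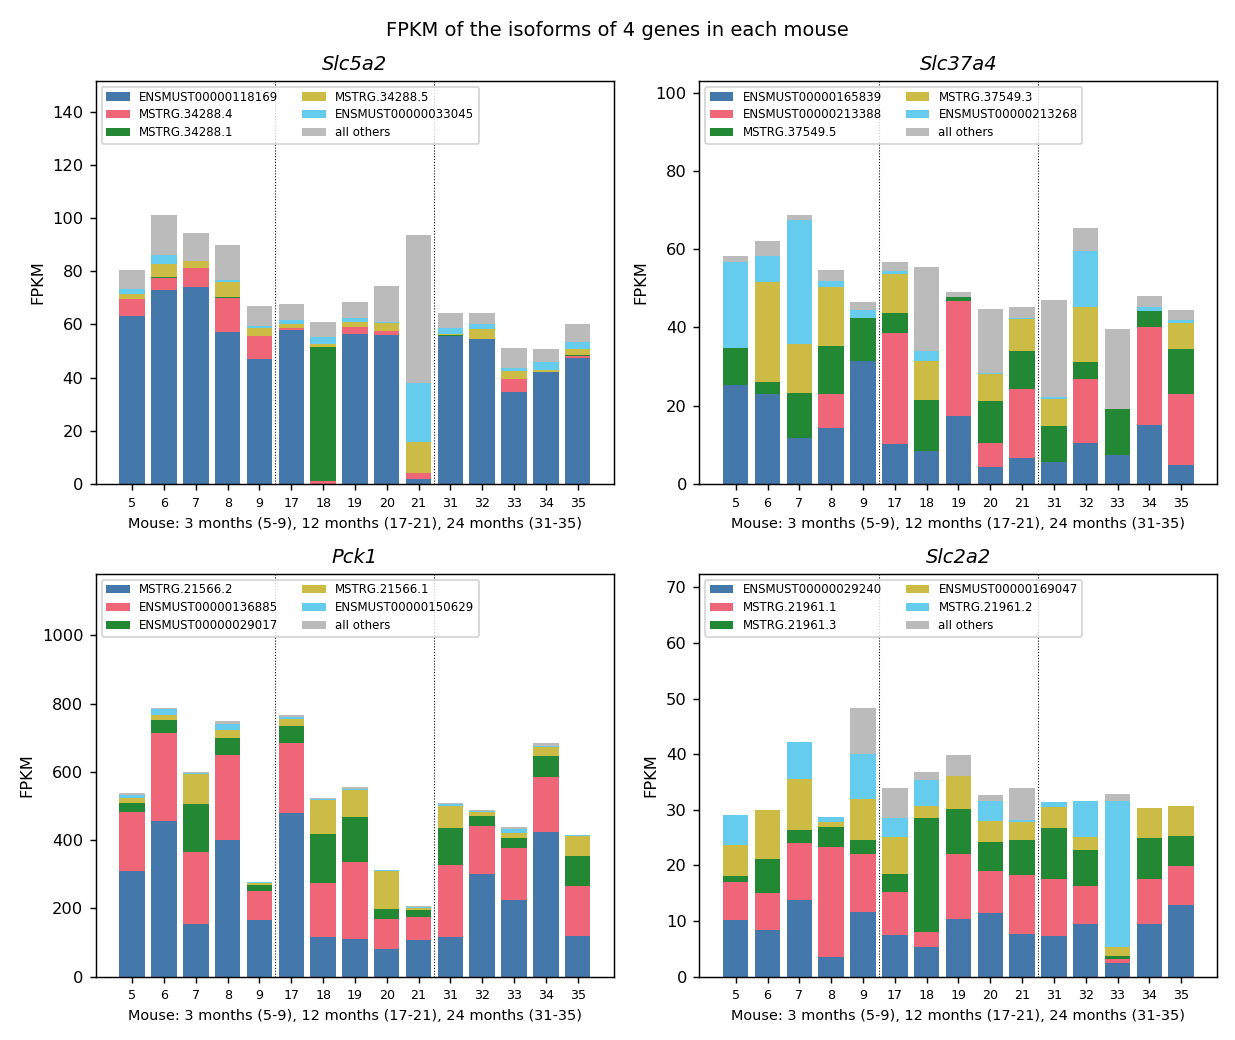
Stacked FPKM of the 5 most abundant isoforms and of all others in each of the 15 mice for Slc5a2, Slc37a4, Pck1 and Slc2a2. The height of a bar is the gene value; the make-up of the bars changes between mice of one age, as in 12-month mice 18 and 21 for Slc5a2.

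In Slc37a4, which had 9 isoforms, ENSMUST00000165839 was at 25.3, 22.9, 11.6, 14.3 and 31.4 FPKM at 3 months and at 5.64, 10.5, 7.46, 15.1 and 4.84 FPKM at 24 months. Its log2 difference was -1.20 (SE 0.34, unadjusted p = 0.00562, adjusted p = 0.389, limma). Its share of the gene was 38.2% ± 19.3 at 3 months and 17.9% ± 8.30 at 24 months (exact permutation p = 0.0556). The annotated ENSMUST00000213388 and ENSMUST00000215420, at 9.96 and 5.40 FPKM on average, varied more. The first was listed at 0 in 4, 1 and 2 mice at 3, 12 and 24 months, and the second in 4, 3 and 2 mice. Pck1 had 6 isoforms, led by the assembled MSTRG.21566.2 with 45.4% of the FPKM and by ENSMUST00000136885, annotated as a retained intron, with 32.3%. The annotated coding transcript ENSMUST00000029017 carried 12.2%, between 17.2 and 144.3 FPKM in single mice. Slc2a2 had 6 isoforms, and ENSMUST00000029240 carried 25.7% while the 3 assembled ones together carried 52.1% ± 17.95, 53.6% ± 12.9 and 60.5% ± 15.9 of the gene at 3, 12 and 24 months. In Fbp1, with 4 isoforms, ENSMUST00000092888 carried 72.4%. For the 7 genes with more than 1 isoform, the share of the most abundant isoform was compared between each pair of ages, 21 exact permutation tests in all, with the smallest p at 0.0556 and the smallest adjusted p at 0.667.

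A separate table lists 11929 circular RNAs, closed loops made by back-splicing (circRNA) or kept from introns (ciRNA), with estimated counts. Of these 6 came from 5 of the 9 genes. How circular reads were told from linear ones is not given in the sources used here, so the circular and linear values may share reads. The circle of G6pc (circRNA2454, 3 exons) was at 3930, 4046, 3172, 2236 and 2154 estimated counts at 3 months. It was at 2460, 1688, 2312, 1949 and 1827 at 12 months and at 2724, 2172, 2222, 3081 and 1595 at 24 months, and all ages overlapped. Unlike FPKM, these counts are not scaled for library depth, and the 3-month-old libraries were the shallowest by median. The overlap is therefore not one at equal depth. Between 24 and 3 months the log2 fold change of the G6pc circle was -0.56 (unadjusted p = 0.0145, adjusted p = 0.0805, edgeR quasi-likelihood), and DESeq2 gave -0.57 with an adjusted p of 0.0375. The exonic circle of Pck1 (circRNA9192) was the most abundant, between 5018 and 17479 estimated counts, and its lowest mice at 3 and 12 months, replicates 9 and 21, were also the lowest in Pck1 FPKM. The others were the intronic ciRNA508 of Pck1 (225.3 to 1473), circRNA1345 of Fbp1 (2527 to 4879), ciRNA141 of Slc2a2 (16.5 to 41) and ciRNA211 of Slc5a1 (2 to 14 estimated counts). With adjusted p under 0.05, 0 of 6 circles were called between 24 and 3 months by edgeR, 1 of 6 had an unadjusted p under 0.05, and 13.3% of 11924 circular RNAs were called.

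**Figure D5:**
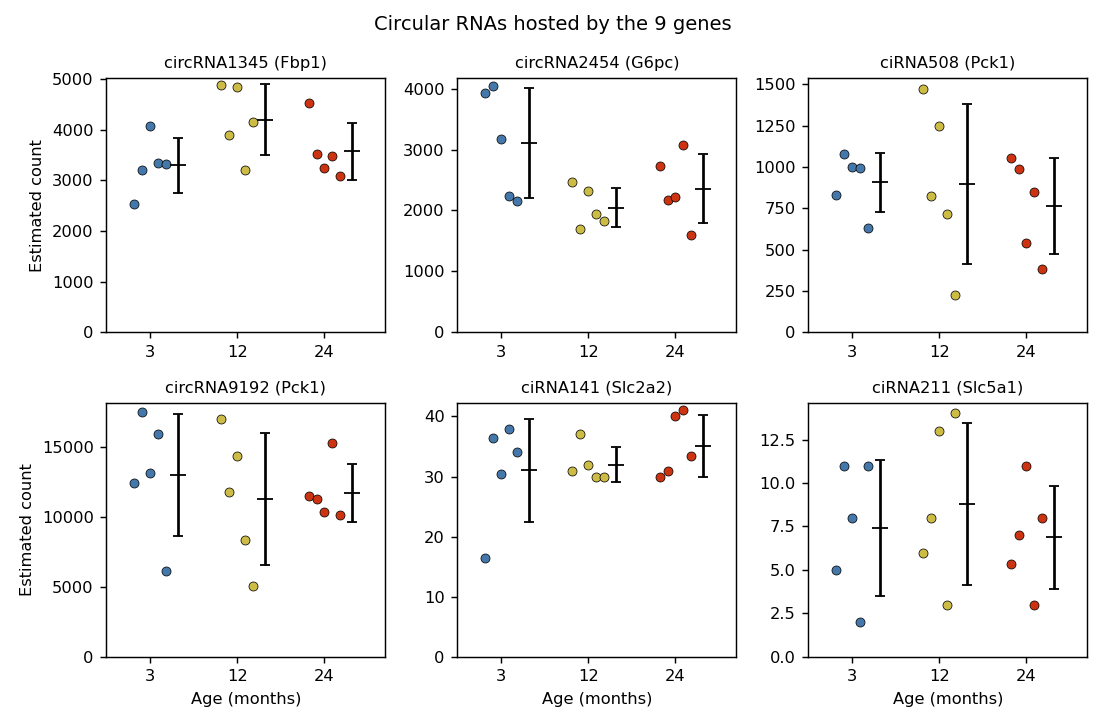
Estimated counts of the 6 circular RNAs of these genes in each mouse (points) at 3, 12 and 24 months, with the mean and SD of 5 mice beside the points. In these counts, which are not scaled for library depth as FPKM is, the G6pc circle overlaps between ages. The Pck1 circle has 1 low mouse at 3 months.

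The genes whose levels ran most like each of the 9 were taken over the 15 mice, as Pearson r of log2(FPKM + 1) among 13446 genes with a mean of at least 1 FPKM. All 15 points share the library scaling and the split into ages, and the r values are descriptions. For G6pc these genes were Abce1 (0.86) and 4930533K18Rik (0.85), and for Slc5a2 they were Galnt14 (0.89) and Atf6b (0.88). Slc2a2 ran with Fgg (0.92) and Trpm6 (0.89), Slc2a1 with Slc4a9 (0.89) and Agfg2 (0.87), and Slc5a1 with Map4k5 (0.87) and Gatc (0.86). Pcx ran with Chtf8 (0.92) and Cox5b (0.85), Pck1 with Cnot2 (0.87) and RP24-286B23.1 (0.87), Fbp1 with Rsl24d1 (0.84) and Zfp251 (0.83), and Slc37a4 with Ssr2 (0.84) and Pign (0.83). None of the 9 genes was among the pair most like another of them.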

How the data were processed

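Kidney RNA of 15 male mice was sequenced. The labels describe ribosomal RNA depletion with a stranded total RNA kit and name TopHat, TopHat2 and StringTie, whereas the methods describe oligo(dT) purification, mention pooled RNA, and name Cutadapt, Bowtie2, HISAT2, StringTie, GRCm38 and Ensembl release 88. The authors deposited FPKM and coverage (a signal per transcript) for linear isoforms, and estimated counts for circular RNAs, with a column per library. Coordinates of 96.2% of 92459 deposited transcripts matched GENCODE M21 on GRCm38.

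FPKM were summed per gene; 4 rows of the 9 genes with other class codes (3.81 FPKM in all) were left out. Pairs of ages were compared with limma 3.58.1 (trend) in R 4.3.3 on log2(FPKM + 1), over genes or transcripts above 0 in at least 1 mouse, which understates changes of low genes. A call was an unadjusted p under 0.05, with Benjamini-Hochberg values beside it. Estimated counts, 83.6% to 94.6% of them not whole, were rounded and tested with edgeR 4.0.16 (TMM, quasi-likelihood, above 0 in at least 5 of 10 mice) or DESeq2 1.42.0. Single values and shares had exact 2-sided permutation tests. Data for 24 against 3 months were simulated with 200 features changed by a log2 value of 1, drawn only from features above an abundance limit. Of these, limma called 92.5% among 31755 genes and 75.0% among 124719 transcripts, and edgeR 94.5% among 11924 circular RNAs. The limma calls used unadjusted p under 0.05 and the edgeR calls adjusted p under 0.05. The rates therefore do not cover low features and cannot be compared between tools.

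The 9 genes and all lists were chosen with earlier results of these data known. Named genes are the 9, their isoforms called or with a mean of at least 1 FPKM, up to 4 called genes per list with the smallest p at 24 against 3 months, and the 2 genes most like each. Cebpb, in the regulator list, was not matched. Some list genes are counted but not reported here by name. Python 3.11.15 was used for the rest.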

Additional observations from a re-analysis of the deposited data

Results flagged for a closer look

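Among the 5 mice of an age, 1 value stood far from the other 4 (Dixon's test at 95%) in 6 of 78 groups tested, where chance flags about 1 in 20. The isoform groups covered only part of the 55 isoforms, and 6 of 78 is not a rate over all of them. Some lone values lay in isoforms that were not tested. In 12-month replicate 18 MSTRG.34288.1 of Slc5a2 was at 50.6 FPKM, against 0.0210 to 0.0982 in the others of its age. In 12-month replicate 21 ENSMUST00000033045 of Slc5a2 was at 22.1 FPKM, against 0.417 to 2.63. MSTRG.17490.5 of Pcx was at 11.4 FPKM in 24-month replicate 32, against 0 to 0.0413. Of the 27 groups of gene FPKM 0 were flagged. Of 33 groups of isoform FPKM 4 were flagged: the assembled Pck1 isoform MSTRG.21566.2 at 478.6 FPKM in 12-month replicate 17 against 80.0 to 116.4 in the others, MSTRG.34288.4 of Slc5a2 at 4.68 FPKM in 24-month replicate 33 against 0 to 0.979, and ENSMUST00000206909 of Slc5a2 at 7.18 FPKM in 12-month replicate 21 and at 0.484 FPKM in 24-month replicate 34, the latter against 0 in the other 4 mice. Of 18 groups of circular RNA 2 were flagged, namely ciRNA141 of Slc2a2 at 37 estimated counts in 12-month replicate 18 against 30 to 32, and circRNA9192 of Pck1 at 15267 in 24-month replicate 34 against 10124 to 11495.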

How the results depend on the processing

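G6pc between 12 and 3 months, and G6pc and Slc5a2 between 24 and 3 months, kept their direction and an unadjusted p under 0.05 in all 9 alternative settings and without each mouse in turn. With adjusted p under 0.05 the count of the 9 genes called was 0 in every comparison (limma). Adjusted p depended on the setting: for Slc5a2 between 24 and 3 months it was 0.0409 with median-ratio scaling and 0.0452 with all 15 mice in 1 fit, for G6pc 0.0421 with all 15 mice, and for G6pc between 12 and 3 months 0.0417 among genes with a mean of at least 1 FPKM, 0.0495 with median-ratio scaling and 0.0240 with all 15 mice. These were 2, 1 and 3 of the 9 settings, in that order. Over all 9 the adjusted p reached 0.350, 0.225 and 0.234 (limma, or the F test with a library covariate). With a fold limit of 1 on the log2 scale beside the unadjusted p, 0 of the 9 genes were called between 24 and 3 months. It was 1, G6pc, between 12 and 3 months and 0 between 24 and 12 months (limma). Of all genes 0.523%, 0.499% and 0.17% passed in these 3 comparisons. Without a fold limit, 1 of the 9 genes was called between 12 and 3 months. With median-ratio scaling 3 were called there, and 3 in the fit with a library covariate. Without 1 mouse each it was 1 to 4, with 4 without 3-month replicate 9 and 2 without 12-month replicate 21. Of all genes 13.9% were called without 3-month replicate 9 and 12.7% without 12-month replicate 21. Between 24 and 12 months, where 2 were called, the count was 0 with TPM, 1 with median-ratio scaling, 1 with all 15 mice and 0 with annotated isoforms alone, and 1 to 3 without 1 mouse each (1 without 12-month replicates 18, 20 or 21 or 24-month replicates 33 or 34, 3 without 24-month replicate 35). Of the isoforms 0 had an adjusted p under 0.05. Of the circles 1 was called by DESeq2 (circRNA2454), and 0 to 1 without 1 mouse each: circRNA2454 without 3-month replicate 8 (adjusted p = 0.0426) and circRNA9192 without 3-month replicate 9 (adjusted p = 0.0467, edgeR). Isoform shares gave 0 to 1 exact p under 0.05, with 1 without 3-month replicates 7 or 8 or 24-month replicates 33 or 34.

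The sign of the log2 difference turned in several small differences. Between 12 and 3 months Slc2a2 was -0.026 with TPM and -0.11 with median-ratio scaling, and Fbp1 -0.079 with median-ratio scaling and -0.043 with the library covariate. Between 24 and 12 months Slc37a4 was 0.027 with TPM, Slc5a2 0.39 with annotated isoforms alone and Slc5a1 -0.057 with proximal tubule scaling. Without 1 mouse each the ranges were -0.029 to 0.34 for Pcx and -0.15 to 0.056 for Fbp1 between 24 and 3 months, -0.046 to 0.14 for Slc2a2 and -0.046 to 0.12 for Fbp1 between 12 and 3 months, -0.069 to 0.17 for Slc5a1, -0.041 to 0.43 for Pck1 and -0.16 to 0.021 for Slc37a4 between 24 and 12 months, and -0.14 to 0.10 for ciRNA141 and -0.12 to 0.045 for circRNA1345. The cause was not tested. No paired analysis was possible because the ages share no replicate numbers. FPKM keeps no counts, so depth was not modelled per gene.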
